A study of Mus musculus with 6 samples.

Results

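Csf3r, the gene of the receptor for granulocyte colony-stimulating factor (G-CSF), and 5 genes of neutrophil proteins, S100a8, S100a9, Ltf, Ngp and Camp, were followed in the tibialis anterior (TA) muscle of young and aged mice. They were taken by symbol from the deposited tables, without a minimum level, and all 6 were found among the 11239 genes listed. The muscle came from C57BL/6 mice, 3 samples at 3 months (young) and 3 samples at 18 months (aged), and no genetic change or treatment is given in the labels for either group. The labels give neither the sex of the mice nor whether each sample came from its own animal, so the p-values measure the spread between these samples. The study concerns G-CSF from muscle and the loss of muscle stem cells with age, and its RNA-seq compares the 2 ages. The ligand gene Csf3 was not analysed here.

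G-CSF is a secreted cytokine that drives the production of neutrophils in bone marrow and their release into blood. Its receptor is a single-pass membrane protein that signals through Janus kinases and STAT transcription factors and is best known from neutrophils and their precursors. S100A8 and S100A9 are calcium-binding proteins that pair as calprotectin, which fills the cytosol of neutrophils and withholds zinc and manganese from microbes. Lactoferrin, neutrophilic granule protein and the cathelicidin precursor are stored in the secondary granules of maturing neutrophils, and their mRNAs are made mainly while the granules form. In skeletal muscle neutrophils are scarce at rest and enter after injury.

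The genes lie in 3 places of the genome (GRCm38 coordinates, as the deposited tables list them). Csf3r is on chromosome 4 (126024550 to 126044440). S100a8 (90668978 to 90670035) and S100a9 (90692632 to 90695721) are neighbours on chromosome 3, on opposite strands and 22597 bases apart. Camp (109847379 to 109849617), Ngp (110419747 to 110423012) and Ltf (111019271 to 111042767) follow each other on chromosome 9, with 570130 bases between Camp and Ngp and 596259 between Ngp and Ltf. No other gene of the GENCODE M21 annotation overlaps any of the 6.

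The 250 bases before the RefSeq start site are shown for 5 of the genes. S100a8, S100a9, Ltf and Ngp were high together in a single library while Csf3r was not. Camp was high in that library as well. Its window was searched too, held no match to the motifs below and is not shown. The sequences are from RefSeq (GRCm38.p6), 5′ to 3′ on the strand of the gene, and capitals mark matches to 3 motifs searched on both strands. The motifs were a TATA box (TATAAA), a core of sites for C/EBP factors, which direct granulocyte development (TTNNGNAA), and a core shared by PU.1, a myeloid factor, and other ETS factors (GAGGAA). Matches that touch appear as a single run of capitals. The RefSeq starts of Csf3r, S100a8, Ltf and Ngp lie inside the gene bounds listed above, so those windows reach past the listed starts.
Csf3r, chr4:126024409-126024658, plus strand: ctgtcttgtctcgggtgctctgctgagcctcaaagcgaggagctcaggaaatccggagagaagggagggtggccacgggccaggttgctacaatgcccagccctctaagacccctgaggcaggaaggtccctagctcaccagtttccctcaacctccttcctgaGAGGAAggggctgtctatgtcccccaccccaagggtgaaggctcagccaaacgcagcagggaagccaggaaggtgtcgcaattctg
S100a8, chr3:90668821-90669070, plus strand: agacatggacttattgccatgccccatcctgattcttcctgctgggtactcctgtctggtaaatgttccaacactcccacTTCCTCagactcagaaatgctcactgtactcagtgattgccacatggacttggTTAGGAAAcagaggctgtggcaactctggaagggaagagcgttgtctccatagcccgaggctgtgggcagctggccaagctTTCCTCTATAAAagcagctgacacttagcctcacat
S100a9, chr3:90695722-90695971, minus strand: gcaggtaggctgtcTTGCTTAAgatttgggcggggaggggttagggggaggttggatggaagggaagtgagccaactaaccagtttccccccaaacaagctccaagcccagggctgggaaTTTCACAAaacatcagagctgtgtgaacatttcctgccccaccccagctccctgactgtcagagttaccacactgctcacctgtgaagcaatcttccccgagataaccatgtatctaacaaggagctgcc
Ltf, chr9:111019042-111019291, plus strand: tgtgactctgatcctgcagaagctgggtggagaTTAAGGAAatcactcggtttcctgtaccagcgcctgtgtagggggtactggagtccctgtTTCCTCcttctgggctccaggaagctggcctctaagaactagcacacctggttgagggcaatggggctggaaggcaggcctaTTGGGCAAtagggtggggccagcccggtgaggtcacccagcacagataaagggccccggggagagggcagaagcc
Ngp, chr9:110419558-110419807, plus strand: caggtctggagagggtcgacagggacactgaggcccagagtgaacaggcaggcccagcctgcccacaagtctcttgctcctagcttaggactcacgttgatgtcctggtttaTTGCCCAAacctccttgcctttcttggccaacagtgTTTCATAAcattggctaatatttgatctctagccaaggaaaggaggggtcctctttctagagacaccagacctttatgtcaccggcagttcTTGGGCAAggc
The C/EBP core was found once before S100a8, at 2 positions each before S100a9 and Ltf and at 3 before Ngp, and was not found before Csf3r or Camp. It occurs in 36.8% of the 32851 windows of this length in the table, the PU.1 and ETS core in 23.3% and the TATA box in 12.4%. The TATA box was found only before S100a8 among the 6 genes, with its first base 30 bases before the start. There it follows directly on a match to the PU.1 and ETS core, which was also found before Csf3r and Ltf. These matches describe the letters of the windows and not sites in use.

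Levels are in FPKM, fragments scaled to transcript length and to library size, as the authors deposited them. Library totals recovered from the values lay between 71984420 and 102135094 fragments. Log2 values of the libraries correlated at 0.995 to 0.997 within a group and at 0.978 to 0.986 across groups. Muscle fibre genes dominated every library, with Acta1, skeletal actin, at 20334 FPKM or more. Young replicate 1 held the most RNA of the monocyte and macrophage list, 124 FPKM summed over 15 listed genes, against 34.3 to 82.0 in the other libraries. Aged replicate 3 stood apart in Gapdh, a glycolytic enzyme, at 67.3 FPKM against 557 to 736 elsewhere. Across genes, 93.9% of 10664 genes with at least 20 fragments lay there between 0.5 and 2 times the mean of the other aged libraries. The same share was not taken for aged replicates 1 and 2. Differences in fragments beyond counting error were measured by the chi-square per degree of freedom. It was 63.4 and 74.5 for aged replicate 3 against aged replicates 1 and 2, and 58.2 between these. In young pairs it was 29.4 to 48.

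The G-CSF receptor gene was higher in aged than in young muscle, and the neutrophil genes were low in 5 libraries and high in aged replicate 3. Csf3r had, in the order of replicates 1, 2 and 3, young values of 0.142, 0.0202 and 0.218 FPKM, from 29, 3 and 46 fragments. The aged values in the same order were 0.518, 0.240 and 0.614 FPKM, from 108, 45 and 114 fragments. All 3 aged libraries lay above all 3 young ones, though aged replicate 2 and young replicate 3 were close. Its mean was 0.127 ± 0.0998 FPKM in young and 0.457 ± 0.194 in aged muscle (SD, n = 3 each), a ratio of 3.61, and the change on the log2(FPKM + 1) scale was 0.37 ± 0.11 (SE, limma, adjusted p = 0.0389). That scale understates the change of genes at such low levels.

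Csf3r was the only gene of the 6 that passed at an adjusted p under 0.05 (limma, Benjamini-Hochberg over 11175 genes). Of all genes tested, 40.8% passed, 21.2% as higher in aged muscle, so a single pass among 6 genes is no more than the background. With the replicate number as a block Csf3r again was the only one of the 6 that passed, beside 39.5% of all genes, and likewise with voom on recovered fragments, beside 43.1%. Voom with the block, chosen after seeing the data, passed all 6, beside 47.5% of all genes. The call needed nearly every library. Leaving out 1 young library ended it in each case, with an adjusted p of 0.0817 when replicate 1, 0.114 when replicate 2 and 0.0503 when replicate 3 was left out. The same held for aged replicates 1 (0.10) and 3 (0.104), whereas the call was kept when aged replicate 2 was left out (0.0113). The log2 change in the 5 fits that ended the call was 0.29 to 0.42. In a bulk sample more cells of a type and more RNA per cell cannot be told apart. Taken by replicate number, Csf3r was 3.65, 11.9 and 2.81 times as high in the aged as in the young library of numbers 1, 2 and 3.

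The calprotectin genes had the highest levels of the 6. S100a8 had 0, 0.226 and 0.418 FPKM in the 3 young libraries, in the order of their replicate numbers, and 0.764, 0.224 and 12.4 FPKM in the 3 aged ones. The groups overlapped, since aged replicate 2 (10 fragments) lay just under young replicate 2 (8 fragments from fewer in all). Aged replicate 3, with 548 fragments, was 16.2 times as high as the next library. The change was 1.35 ± 0.85 on the log2(FPKM + 1) scale (SE, limma, adjusted p = 0.245), with a 95% interval of −0.70 to 3.40.

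S100a9 stood at 0.0782, 0.0269 and 0.285 FPKM in young and at 0.863, 0.726 and 13.04 FPKM in aged replicates 1, 2 and 3. The aged libraries all lay above the young ones, and aged replicate 3 was 15.1 times as high as the next. By replicate number the aged library was 11.03, 27.0 and 45.8 times as high as the young one. The change was 1.66 ± 0.78 (SE, limma, adjusted p = 0.134), with an interval of −0.22 to 3.54. Without aged replicate 3 the change was smaller, 0.67 ± 0.10, and passed (adjusted p = 0.0103). In that fit 31.4% of all genes passed. There the other 2 aged libraries, with 45 and 34 fragments, stood 6.12 times as high as the mean of the young ones, which held 4, 1 and 15. With a pseudocount of 0.1 in place of 1, S100a9 also passed in all 6 libraries (3.41, adjusted p = 0.0353).

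The ratio between the 2 calprotectin genes varied between libraries. S100a9 was 1.05 times as high as S100a8 in aged replicate 3 (exact 95% interval 0.936 to 1.18, counting error only) and 1.13 times in aged replicate 1 (0.717 to 1.79). In aged replicate 2 it was 3.24 times as high (1.57 to 7.36), from 34 and 10 fragments. In young replicate 3, from 15 and 21 fragments, it was 0.681 times as high (0.327 to 1.39), and in young replicate 2, from 1 and 8 fragments, 0.119 times (0.00269 to 0.889). The intervals of aged replicate 2 and young replicate 2 did not overlap with that of aged replicate 3. Young replicate 1 had no fragment of S100a8.

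The 3 granule genes were detected almost solely in aged replicate 3. Ltf, lactoferrin, an iron-binding protein, had young values of 0.0148, 0.0408 and 0.216 FPKM in replicate order. It was at 0 in aged replicates 1 and 2 and reached 5.45 FPKM in aged replicate 3. The groups overlapped, with 18 fragments in the young libraries, 0 in the first pair of aged libraries and 334 in the last. A count of 0 allows up to 0.0436 and 0.0485 FPKM in aged replicates 1 and 2 (3 fragments per library). The change was 0.78 ± 0.71 (SE, limma, adjusted p = 0.415).

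Ngp, neutrophilic granule protein, stood at 0, 0 and 0.112 FPKM in young and at 0, 0.0721 and 3.90 FPKM in aged replicates 1, 2 and 3. Its fragments numbered 14 in young replicate 3, 8 in aged replicate 2 and 428 in aged replicate 3, and the groups overlapped. The change was 0.75 ± 0.59 (SE, limma, adjusted p = 0.347). Camp, the precursor of the cathelicidin antimicrobial peptide, had 0, 0 and 1 fragments in young and 1, 2 and 143 in aged replicates 1, 2 and 3, the last at 2.10 FPKM. All aged values lay above all young ones, but young replicate 3 (0.0129 FPKM) and aged replicate 1 (0.0131) differed only by library size. Camp was thus higher in the aged library of all 3 replicate numbers, S100a8 and Ngp of 2 each and Ltf of 1. The change of Camp was 0.56 ± 0.42 (SE, limma, adjusted p = 0.325).

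Csf3r, S100a9 and Camp, 3 of the 6, did not overlap between the groups, with aged muscle higher, as 29.2% of all genes did (55.7% in either direction). Without aged replicate 3 the log2 change was −0.12 for Ltf, −0.0009 for Ngp and 0.02 for Camp, while S100a8 was at 0.29 (adjusted p = 0.322) and Csf3r at 0.29.

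**Figure D1:**
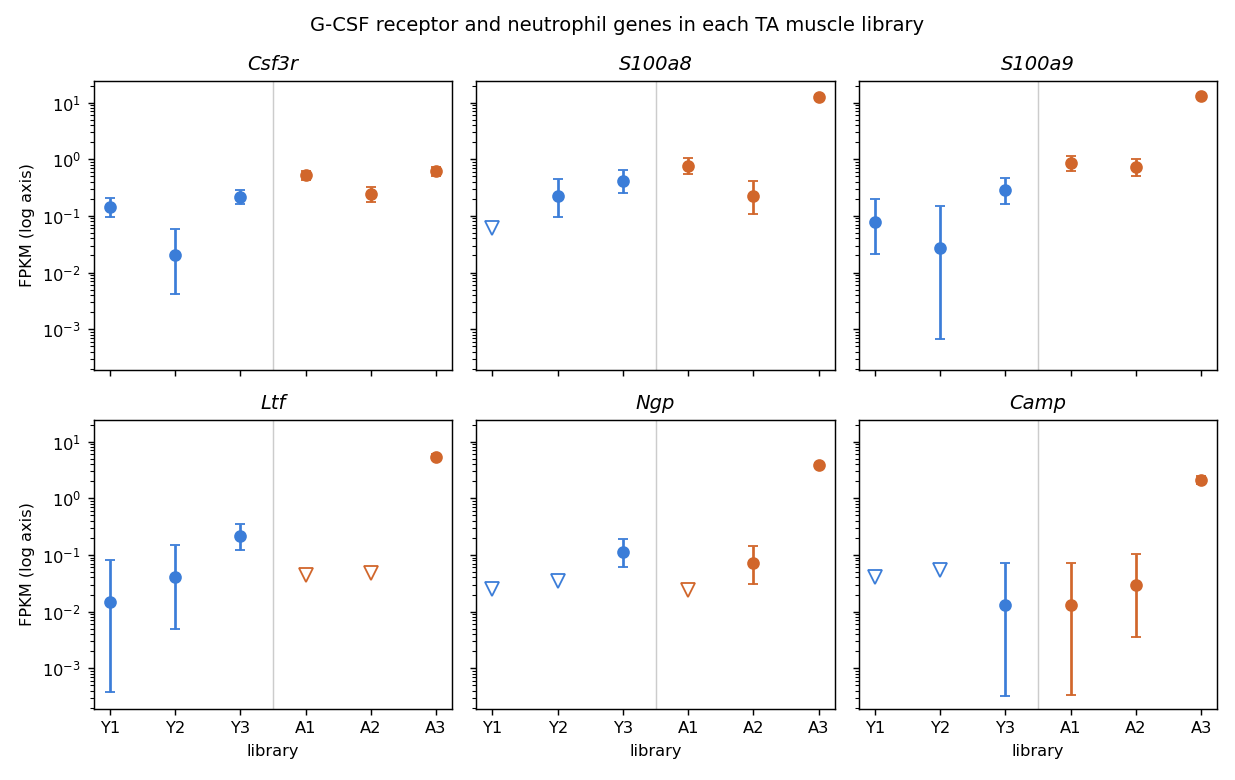
FPKM (log axis) of each gene in each library, with Y1 to Y3 the young and A1 to A3 the aged replicates. Points are values with 95% Poisson intervals of the fragments, and open triangles mark libraries at 0, drawn at the level of 3 fragments; S100a8, S100a9, Ltf, Ngp and Camp peak in A3 at 2.10 to 13.04 FPKM, while Csf3r in A3 (0.614) is close to A1 (0.518).

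**Figure D2:**
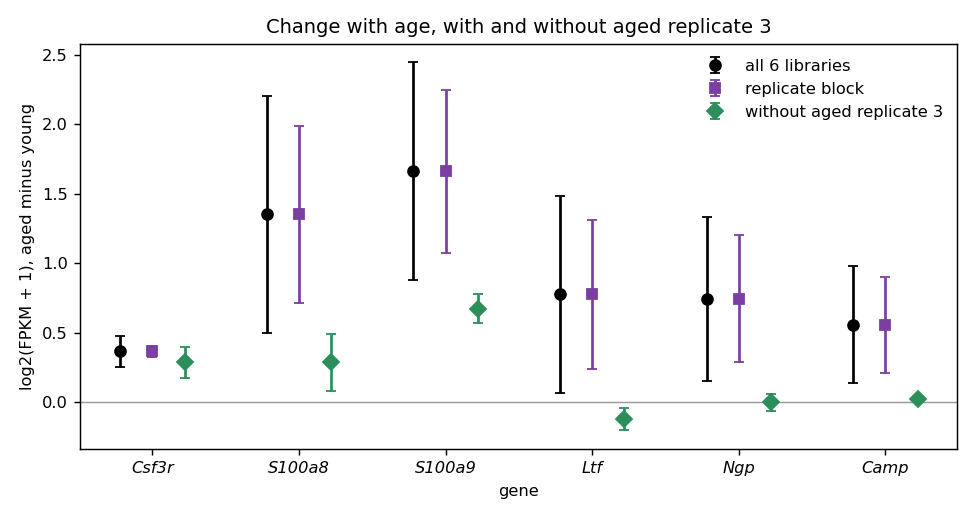
Aged minus young on the log2(FPKM + 1) scale with standard errors, from all 6 libraries, from the same with the replicate number as a block, and without aged replicate 3. Without that library Ltf, Ngp and Camp lie between −0.12 and 0.02, S100a9 stays at 0.67, and Csf3r moves from 0.37 to 0.29.

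Csf3r was also highest in aged replicate 3, but by far less than the neutrophil genes. The level of Csf3r there was 1.62 times the mean of aged replicates 1 and 2, a ratio that 510 of 10664 genes exceeded. Its ratio of counts per total was 1.59 (exact 95% interval 1.24 to 2.04, counting error only). S100a9 was 16.4 times and S100a8 25.1 times that mean, ratios exceeded by 8 and 5 genes. Ngp was 108 times as high, the top ratio among the 10664 genes. Ltf, at 0 in aged replicates 1 and 2 and so not among those genes, was at least 118 times as high against a floor of 3 fragments per library. Camp, with 143 fragments against 3, had a ratio of counts per total of 102 (exact 95% interval 34.1 to 499). The median of all genes was 1.01. These ratios describe a single library, with no replicate of its own and no test.

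**Figure D3:**
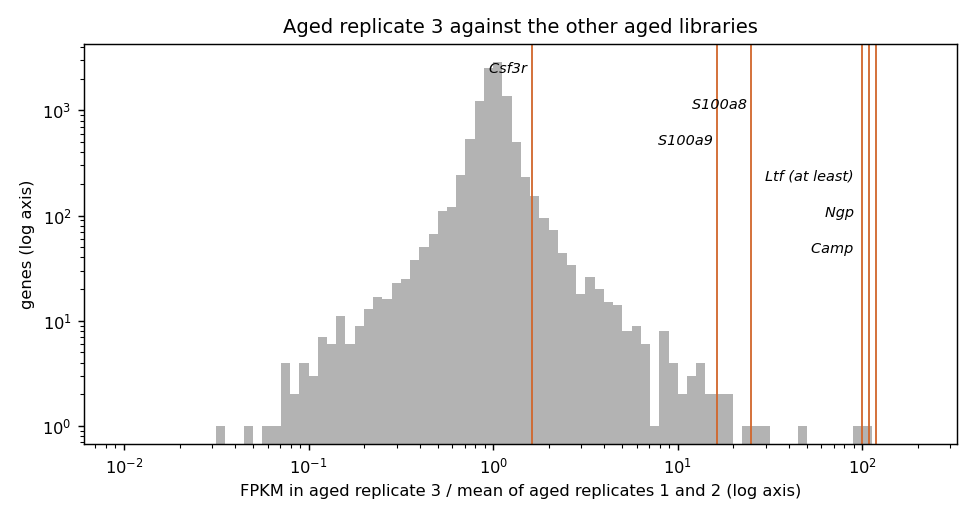
Number of genes (log axis) by the ratio of FPKM in aged replicate 3 to the mean of aged replicates 1 and 2 (log axis), over genes with at least 20 fragments. Lines mark the 6 genes. Csf3r (1.62) is exceeded by 510 of 10664 genes. S100a9 (16.4) and S100a8 (25.1) lie far out in the tail, and Camp, Ngp and Ltf at its end, Ltf as a lower bound.

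The share of Csf3r among the fragments of all 6 genes showed the same contrast. It was 85.3%, 21.4% and 41.1% in young replicates 1, 2 and 3, of 34, 14 and 112 fragments. It was 56.2% and 45.5% in aged replicates 1 and 2, of 192 and 99 fragments, and 5.25% of 2172 in aged replicate 3. Each of the 6 genes was highest in replicate 3 within both age groups, a pattern that 12.1% of all genes had. The genes were chosen with the values of aged replicate 3 known, so this share is no test of the pattern. For Camp the peak among the young libraries was 1 fragment.

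The order of the levels depended on the transcript length behind FPKM. For the 6 genes the recovered length equals the rounded mean over all annotated transcripts, which for Ltf is 681 bases over 12 transcripts between 233 and 2743 bases long. In aged replicate 3 the order by deposited FPKM was S100a9 (13.04), S100a8 (12.4), Ltf (5.45), Ngp (3.90), Camp (2.10) and Csf3r (0.614). Per longest annotated transcript, a setting chosen after seeing the data, Ltf was at 1.35 FPKM, 4.03 times lower, and fell behind Ngp (3.90) and Camp (2.10). Csf3r, with 4 transcripts of 696 to 3481 bases and a mean of 2065, moved from 0.614 to 0.364 FPKM and stayed last. S100a8 and S100a9, whose transcripts differ by a few bases, stayed at the front and were not separated by counting error. The choice of length cancels in ratios of FPKM of a gene between libraries, but not in changes on the log2(FPKM + 1) scale.

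**Figure D4:**
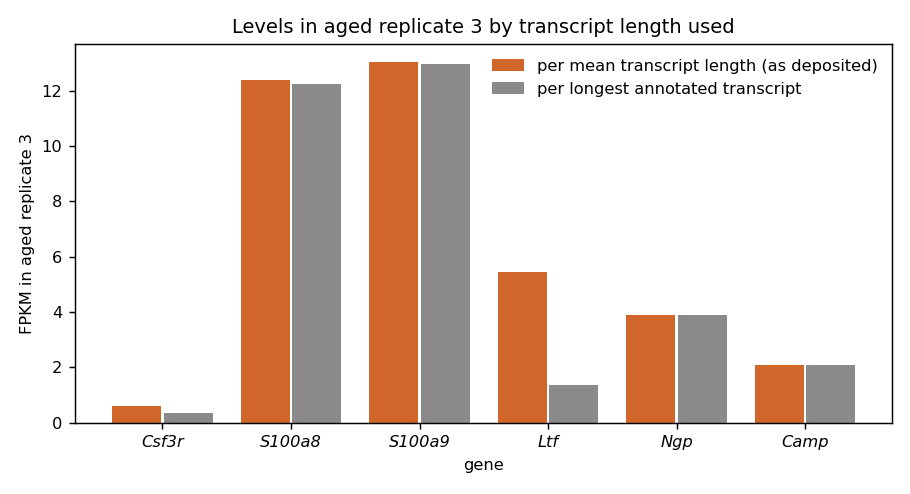
FPKM of each gene in aged replicate 3, per mean annotated transcript length as deposited and per longest annotated transcript. Ltf drops from 5.45 to 1.35 and passes below Ngp (3.90) and Camp (2.10), while S100a8 and S100a9 stay above 12.

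The genes spread most like S100a8 over the 6 libraries were sought among 9297 genes with at least 20 fragments, leaving out the 6 and predicted gene models. Likeness was the overlap of the shares of summed FPKM that fall in each library, a description over 6 libraries with a median of 28.2% over those genes. Nearest was Cd177, a surface glycoprotein of neutrophils (94.6% overlap), with 65 of its 72 fragments in aged replicate 3. Cxcr2, the chemokine receptor that draws neutrophils to tissue, was the last of the 5 (87.5%), with 16 of 21 fragments there. Between them came Rnase1, a secreted ribonuclease (93.7%), and the immunoglobulin genes Ighg1 (93.6%) and Ighv1-80 (92.9%), the last with 28 of 30 fragments in aged replicate 3. The members S100a9, Ngp, Ltf and Camp overlapped with S100a8 by 90.9% to 95.9%, and Csf3r by 46.2%. S100a8 had 88.4% of its summed FPKM in aged replicate 3, so a high overlap with it requires a high share in that library. The 5 nearest genes also reached 20 fragments only through aged replicate 3. The likeness thus describes that library and is no separate finding of neutrophil genes.

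The genes most like Csf3r were others. They were Sln (92.5%), the gene of sarcolipin, which restrains the calcium pump of the sarcoplasmic reticulum, Cacng4 (92.3%), a channel subunit gene, Zfp947 (92.2%), a zinc finger gene, Slitrk5 (91.9%), a membrane adhesion gene, and Pld5 (91.6%), of the phospholipase D family. Against Csf3r the median overlap over the 9297 genes was 68.7%. Sln stood at 0.934, 0.949 and 0.951 FPKM in young and at 3.74, 1.68 and 4.01 FPKM in aged replicates 1, 2 and 3. Like Csf3r it was lowest among the aged libraries in replicate 2. The same genes were found with median-of-ratios scaling of the libraries, 5 of 5 for each.

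**Figure D5:**
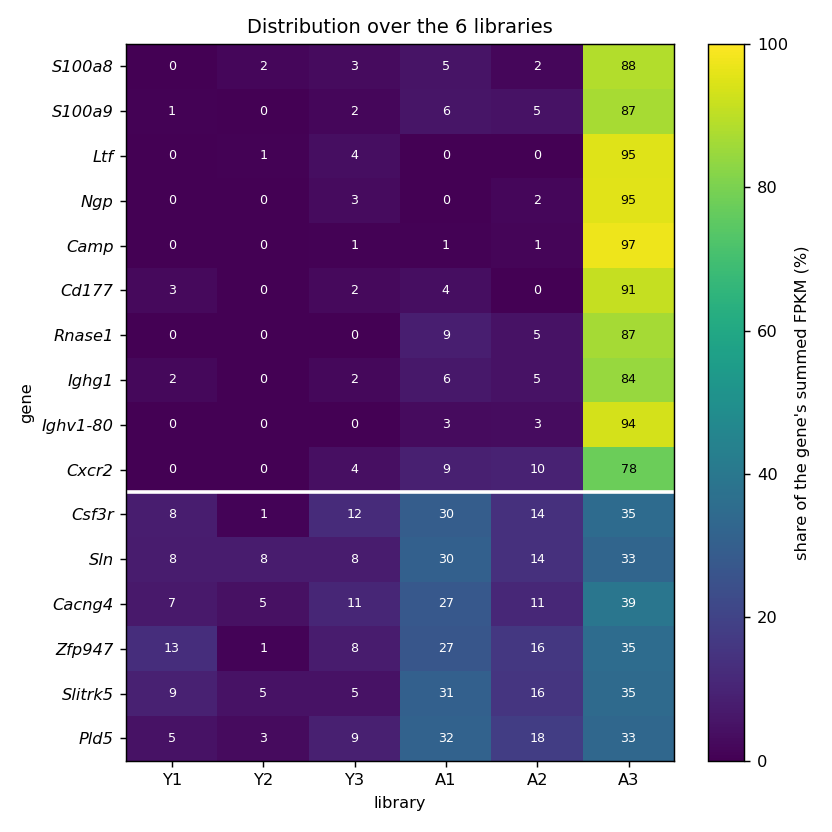
Share of each gene's summed FPKM that falls in each library, in percent, for S100a8, the other granule and calprotectin genes and the 5 genes most like S100a8 (above the line), and for Csf3r and the 5 genes most like it (below). The upper genes hold 77.5% to 97.4% of their FPKM in A3, whereas Csf3r has 35.1% in A3 and 29.5% in A1.

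Aged replicate 3 was at least 5-fold above every other library for 13 of the 10688 genes with at least 20 fragments. These were the 5 neutrophil genes, Cd177, Cxcr2, Rnase1, Ighg1, Ighv1-80, the predicted gene Gm20686, and 2 genes named after their values were seen, Mmp8, the neutrophil collagenase, and Mcemp1. The level of Mmp8 was 0.183 FPKM in that library, with no other library above 0.0318. The minimum of 20 fragments counts all 6 libraries together, and all of the 13 but S100a8, S100a9 and Ngp reached it only through aged replicate 3. Such a count was not made for the other libraries, so the 13 have no background. Siglecf, named below, was in turn at 0.473 FPKM in young replicate 1 and at 0.0499 or less elsewhere. The neutrophil genes had been taken up with the values of aged replicate 3 known, so their place among the 13 is a description.

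Other neutrophil genes did not all follow. Of 29 genes of a list of granule and secreted proteins, 18 were listed, 0 passed in either direction in limma, and the median log2 change was 0.13 against 0.0003 over all genes. At an unadjusted p under 0.05, 0 of the 18 passed, and voom on recovered fragments also called 0. The list holds 5 of the 6 genes described. Without aged replicate 3, S100a9 passed as higher and Lcn2, lipocalin 2, as lower. Chil3, a chitinase-like secreted protein, peaked in aged replicate 3 at 1.53 FPKM, against 0.344 or less elsewhere. Lcn2 stood at 2.61 FPKM there, at 0.780 and 1.00 in aged replicates 1 and 2, and at 1.73 to 2.22 in young muscle. Chil3 and Lcn2 are named after their values were seen. The most abundant genes of the list are not particular to neutrophils. Lyz2, lysozyme, was at 70.8 FPKM in young replicate 1 and 14.1 to 33.8 elsewhere, and Anxa1, annexin A1, at 12.4 to 27.4. Of 22 surface and chemotaxis genes 11 were listed, of which Csf3r passed as higher and Mxd1, a MYC-network repressor gene, as lower (4.38 ± 0.687 to 3.12 ± 0.0327 FPKM, SD, n = 3, limma adjusted p = 0.0299). Neither passed without aged replicate 3 or without young replicate 1.

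Markers of other blood and tissue cells were read beside these values. In limma 21.2% of all genes rose and 19.5% fell, and with voom 43.1% passed. No such share is given for an unadjusted p under 0.05, so those counts have no background. The monocyte and macrophage list summed to 66.6, 34.3 and 48.1 FPKM in aged replicates 1, 2 and 3, with no gene at 0, so aged replicate 3 lay between the others. In that list, 0 of 15 genes rose in limma, at an unadjusted p under 0.05 or with voom, whereas 3 fell in limma, Lyve1 and Cd163 among them, 9 at an unadjusted p under 0.05 and 8 with voom. The B cell list summed to 9.01 to 12.4 FPKM in young and 53.9, 27.0 and 38.2 in aged replicates 1, 2 and 3, so aged replicate 3 lay between the others there as well. Of its 8 listed genes, 3 rose (Ighm, Igkc and Jchain), and Ms4a1, a defining B cell marker, was at 0 in all young libraries. Red cell genes summed to 288 to 363 FPKM in young and 327 to 347 in aged muscle, and of 8 listed genes 3 rose (Hba-a1, Hbb-bs and Bpgm) and 1 fell (Tfrc). Tfrc alone stood at 113 to 143 FPKM in young and at 29.5 to 33.1 in aged muscle. Its fall offsets the rise of the other genes in these sums. Hbb-bs, a haemoglobin chain, stood at 67.8 to 106 FPKM in young and at 130, 139 and 137 FPKM in aged replicates 1, 2 and 3. Slc4a1, the anion exchanger of the red cell membrane, named after its values were seen, was instead highest in replicate 3 of both groups. In replicate order its young values were 0.0930, 0 and 0.508 FPKM and its aged values 0.0746, 0.0831 and 1.02 FPKM, the last from 110 fragments (limma adjusted p = 0.648). The 5 listed T and NK cell genes summed to 0.595 to 0.846 FPKM in aged and 0.585 to 1.68 in young muscle. Of 5 listed keratinocyte genes, Trp63 rose, and of 10 muscle fibre genes 2 rose and 2 fell. None of the 2 platelet or the 6 mast cell, basophil and eosinophil genes passed in limma, while 0 and 1 of them did at an unadjusted p under 0.05 and with voom. The part of blood or other cells in the values of the 6 genes was not tested.

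Downstream of the receptor, of 27 signalling genes 19 were listed, of which 3 rose, Csf3r among them, and 4 fell, with a median log2 change of −0.06, where 40.8% of all genes passed. Stat5b, a transcription factor activated by Janus kinases, rose from 81.0 ± 6.22 to 97.4 ± 2.80 FPKM (SD, n = 3, limma adjusted p = 0.0185). The Stat5b call was not kept without aged replicate 3 or without young replicate 1. Jak2, a receptor-bound kinase, fell from 17.2 ± 1.37 to 11.6 ± 1.54 FPKM, and Pik3r1, the regulatory subunit of phosphoinositide 3-kinase, from 74.6 ± 10.7 to 42.2 ± 4.05 (limma adjusted p = 0.00880 and 0.00427). Stat3, the main STAT of the G-CSF receptor, was at 35.4 to 41.9 FPKM in all libraries and did not pass (adjusted p = 0.197). Socs3, its feedback inhibitor, was at 2.37 to 3.33 FPKM (adjusted p = 0.206). Stat3 and Socs3 are named after their values were seen, and all these genes also act downstream of other receptors.

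Among granulocyte transcription factors 8 of 10 were listed, with 1 higher and 2 lower, beside 21.2% and 19.5% of all genes. Cebpd and Cebpb, of the C/EBP family, fell from 54.2 ± 11.4 to 10.9 ± 2.29 and from 86.8 ± 12.7 to 28.6 ± 5.84 FPKM (SD, n = 3, limma adjusted p = 0.000924 and 0.00157). Cebpe, the member that drives secondary granule genes, was at 1.03 FPKM in young replicate 1 and at 0.216 in aged replicate 3, with 0.0799 or less elsewhere (adjusted p = 0.464), and is named after its values were seen. In that young library Ltf, Ngp and Camp held 1, 0 and 0 fragments, while eosinophil genes were also at their highest. Siglecf, a lectin of eosinophils, had 0.473 FPKM there and 0.0499 or less elsewhere, Ccr3, the eotaxin receptor, 0.475 and 0.0637 or less, and Il5ra, the interleukin-5 receptor, 0.204 and 0.0197 or less. The peak in that library was not particular to eosinophil genes. Itgb2 (4.45 FPKM), Tyrobp (9.92) and Ccr2 (2.98), which other myeloid cells share, were highest there too. All of these are named after their values were seen, and their part in the Cebpe value was not tested.

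Of 15 receptors for colony-stimulating factors and related cytokines 11 were listed, of which Csf3r rose and 4 fell, with a median log2 change of −0.20. Of all genes, 21.2% rose and 19.5% fell. Il6ra, the interleukin-6 receptor, fell from 7.79 ± 1.52 to 2.64 ± 0.267 FPKM (limma adjusted p = 0.00172). Csf1r, the macrophage receptor, was at 3.67 to 5.66 FPKM in young and 1.58 to 3.47 in aged muscle (adjusted p = 0.0551). Csf2ra, a subunit of the receptor for granulocyte-macrophage colony-stimulating factor, was at 4.68 to 11.7 and 2.36 to 3.69 FPKM (adjusted p = 0.0516). Both are named after their values were seen.

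In the S100 family, 8 of 16 genes were listed, of which 0 rose and 2 fell in limma, at an unadjusted p under 0.05 and with voom alike. The limma shares over all genes were 21.2% higher and 19.5% lower. S100a10, the annexin A2 partner, fell from 28.8 ± 6.56 to 16.6 ± 1.62 FPKM (adjusted p = 0.0140). S100a1, the muscle member, was the most abundant of those listed, at 117 to 139 FPKM. In aged replicate 3 S100a9 (13.04 FPKM) and S100a8 (12.4) also lay below S100a16 (32.0), S100a6 (31.2) and S100a10 (17.5). They lay above S100a7a (0.141) and S100a5 (0), the last named after its values were seen. Of the receptors of calprotectin, Tlr4 was at 1.24 to 2.53 FPKM (adjusted p = 0.0908), and Ager fell from 0.477 ± 0.181 to 0.171 ± 0.0715 (adjusted p = 0.0345), a call lost without aged replicate 3 or young replicate 1. Among 7 listed genes of neutrophil recruitment, Cxcl12, which holds neutrophils in bone marrow, rose from 18.7 ± 1.72 to 32.2 ± 2.15 FPKM (adjusted p = 0.00157), and Il17ra fell from 1.00 ± 0.107 to 0.594 ± 0.127 (0.0146).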

How the data were processed

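RNA-seq of TA muscle was deposited as one table per library, and the values are FPKM as the authors deposited them. The tools named, per the submitters' processing notes, are TopHat, DESeq2 and bcl2fastq 2.19, with build mm9, while the listed coordinates follow GRCm38 (89.0% of 11210 genes share their start with GENCODE M21). The tables list 11239 genes, and no source used here gives the rule of their selection. A selected table can raise the share of genes that pass a test.

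Whole fragments and library totals were recovered from the FPKM steps (within 0.001 of a whole number for 11175 genes above 0). For 80.1% of genes the length that gave them was the mean annotated transcript length. Counting intervals are exact Poisson at 95% and cover counting error only.

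The main test was limma 3.58.1 (R 4.3.3) with a trend on log2(FPKM + 1), without a minimum level, and Benjamini-Hochberg adjustment over 11175 genes. Voom on recovered fragments, other pseudocounts, minimum levels, scalings and left-out libraries were tried as alternatives. The procedure was tested on simulated data. Tables were handled with Python 3.11.15, pandas 2.3.3 and SciPy 1.17.1. The 6 genes and 16 gene lists were chosen with earlier results of these data known. Named beside the 6 genes were, per list, up to 4 genes that passed with the largest change and the 3 most abundant, and the 5 genes most like Csf3r and S100a8. Exceptions are marked, and a few genes under this rule are not reported here.

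Same-numbered young and aged libraries deviated together (r = 0.164, 0.171 and 0.124, other pairs −0.175 to 0.032). These correlations are weak and rest on 3 libraries per age, so they do not settle whether the replicate numbers pair the samples. The labels do not say what a number marks.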

Additional observations from a re-analysis of the deposited data

How the results depend on the processing

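The 6 genes were refitted under up to 15 alternatives, of which a minimum mean of 1 FPKM retained only S100a8 and S100a9. Csf3r kept its direction in all fits that held it. With single libraries left out its log2 change ranged from 0.29 to 0.48 and its adjusted p from 0.0113 to 0.114. The same ranges were 0.67 to 2.2 (0.0103 to 0.252) for S100a9, 0.29 to 2.02 (0.111 to 0.398) for S100a8, 0.02 to 0.83 (0.192 to 0.483) for Camp, −0.12 to 1.22 (0.247 to 0.547) for Ltf and −0.0009 to 1.14 (0.193 to 0.992) for Ngp. Ltf and Ngp changed sign without aged replicate 3, at −0.12 and −0.0009. S100a9 passed with a pseudocount of 0.1 (3.41). The replicate block in limma changed no call among the 6 genes (Csf3r 0.37, adjusted p = 0.0072). Voom with the replicate block, chosen after seeing the data, passed all 6 genes, with log2 changes of 1.88 for Csf3r, 4.27 for S100a8, 4.87 for S100a9, 3.77 for Ltf, 4.59 for Ngp and 4.82 for Camp (adjusted p of 0.000145 to 0.00684), where 47.5% of all genes passed. Ltf was nevertheless higher in the aged library for only 1 of 3 replicate numbers. The cause of these changes was not tested. The count over all genes, 4555, ranged from 3038 to 4123 with single libraries left out and from 3982 to 5305 otherwise. Depth limits Camp, Ngp and Ltf, which had at most 15 fragments in any library other than aged replicate 3.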
